A study of Mus musculus with 62 samples.

Results

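Aminoacyl-tRNA synthetases are the enzymes that load each amino acid onto its transfer RNA. The 35 synthetase genes described here were chosen by symbol from the 56884 gene IDs of the count table. They fall into 19 genes for cytosolic enzymes (Aars1, Cars1, Eprs1, Farsa, Farsb, Gars1, Hars1, Iars1, Kars1, Lars1, Mars1, Nars1, Qars1, Rars1, Sars1, Tars1, Vars1, Wars1 and Yars1) and 16 for mitochondrial enzymes (Aars2, Cars2, Ears2, Fars2, Hars2, Iars2, Lars2, Mars2, Nars2, Pars2, Rars2, Sars2, Tars2, Vars2, Wars2 and Yars2). All 35 passed the filter on low counts through the same rule as every other gene and were tested in each comparison.

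The samples were livers of male C57BL/6J mice that ate a Western diet for 12 weeks and then underwent sleeve gastrectomy (SG), in which about 75% of the stomach is removed, or a sham operation at 17 weeks of age. From day 7 after surgery the mice ate a lower-fat diet or stayed on Western diet (WD, 15.2% protein, 42.0% fat, 42.7% carbohydrate). The lower-fat diets had 7%, 21% or 36% of calories from protein (P7, P21 and P36, each with 20% from fat). Their carbohydrate share is not given. With fat fixed, the calories left for carbohydrate fall as protein rises, so effects of protein and carbohydrate cannot be told apart between these diets. The livers were collected at postoperative week 14, once the mice had been refed for 4 h following 16 h without food. Counts were used from 7 SG and 7 sham P7 libraries, 6 SG and 7 sham P21 libraries, 4 SG and 5 sham P36 libraries, 8 SG and 8 sham WD libraries, and 1 SG and 4 sham chow libraries. The labels do not describe the chow diet or say whether the chow mice had first eaten WD, and 5 labelled libraries are not analysed here. Each library was taken as 1 animal; the mice were housed in pairs and cages are not given, so p-values measure the spread between these libraries only.

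A synthetase typically recognises a single amino acid and the transfer RNAs that carry it. Cytosolic enzymes feed protein synthesis on cytosolic ribosomes, and a separate nuclear-encoded set is imported into mitochondria; Gars1 and Kars1 serve both compartments, Eprs1 is a fused enzyme for glutamate and proline, and Farsa and Farsb are the subunits of the phenylalanine enzyme. When amino acids are scarce, uncharged transfer RNA activates the kinase GCN2 and raises translation of the transcription factor ATF4, whose known targets include many cytosolic synthetase genes; the liver is a tissue in which dietary protein is known to engage this pathway.

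The libraries held 6.99 M to 34.01 M counts, and levels are given as library-scaled counts (CPM). Markers of hepatocytes summed to 39400 to 108000 CPM over all libraries, and all 6 were detected in every group. The library labelled SG P7 7 lay apart from the other 6 of its group: Trib3, an ATF4 target, stood at 4.22 CPM in it and at 42.9 to 117 CPM in the others. Ddit3, a stress-induced transcription factor gene, stood at 11.2 CPM in it and at 37.1 to 61.1 CPM in the others. Of 8 genes of the amino acid response, 7 were lower in it than in all 13 other P7 libraries of both surgeries, and all 8, Atf4 included, lay within the range of the 43 libraries of other diets (1.12 to 10.9 CPM for Trib3 and 5.99 to 26.2 CPM for Ddit3). In these genes the library thus goes against its diet label. The cause was not tested, and the counts of called members that rest on it are given with and without it. Shares of all genes called belong to the fit with all libraries, so they are no background for counts without it. Of the cytosolic synthetases, 5 were below and 6 above all 6 other libraries in it, and of the mitochondrial ones 2 were below and 10 above. A fat-cell list (Adipoq, Plin1, Cfd, Car3 and Lep) was summed without a split by gene, so its sum is not read as an amount of fat tissue. SG WD libraries 5 and 7 had the lowest sums of their group over this list (111 and 151 CPM, against 2180 to 5470 CPM in the other 6). Earlier results of these data had set apart sham P21 libraries 1 and 2. Values without each of these 2 pairs of libraries are given where a call of a member is lost.

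Levels are compared between genes in CPM per kilobase of transcript, averaged over all libraries. The cytosolic genes had a median of 19.1 and ran from 6.10 (Vars1, the valine enzyme) to 60.6 CPM per kb (Aars1, the alanine enzyme), with Nars1 (asparagine) at 46.5 and Sars1 (serine) at 38.0 CPM per kb. The mitochondrial genes had a median of 6.29 CPM per kb. Lars2, the mitochondrial leucine enzyme, led them at 49.6, ahead of Iars2 (isoleucine) at 11.4 and Tars2 (threonine) at 10.7 CPM per kb. The lowest was Mars2 (methionine), at 0.395 CPM per kb over a long transcript of 11.294 kb.

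The question that the protein diets pose is how the livers of mice on little protein differ from those on more. In sham mice on P7 against P36, 7 cytosolic synthetases rose and 2 fell, and 1 mitochondrial synthetase fell. Of the mitochondrial genes 0 rose by edgeR, DESeq2 or limma-voom, or at an unadjusted p under 0.05. DESeq2 called 2 of them lower and limma-voom 3. At an unadjusted p under 0.05, 7 of them fell, against 28.6% of all genes in either direction. The risen genes serve glycine (Gars1), serine (Sars1), cysteine (Cars1), tyrosine (Yars1), glutamate and proline (Eprs1), isoleucine (Iars1) and leucine (Lars1). Calls were made at an adjusted p under 0.05 in edgeR's quasi-likelihood test with Benjamini-Hochberg adjustment, over 16087 genes, of which 15.7% were called, 7.48% higher and 8.19% lower. The median log2 fold change was 0.18 for the cytosolic and -0.17 for the mitochondrial genes, against 0.03 for all genes.

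Gars1, the glycine enzyme, ranged from 63.9 through a median of 78.4 to 89.5 CPM in sham P7 livers, against 44.6, 42.4, 45.9, 49.4 and 58.2 CPM in sham P36 livers. The groups did not overlap. Its means were 79.2 ± 9.52 CPM (SD, n = 7) on P7 and 48.1 ± 6.20 CPM (SD, n = 5) on P36, a log2 fold change of 0.77 ± 0.11 (SE, adjusted p = 1.05e-06). Sars1, the serine enzyme, had 85.0, 108 and 116 CPM as lowest, median and highest on P7, against 52.0, 79.2, 66.9, 65.3 and 56.1 CPM on P36, again with no overlap (log2 fold change 0.75 ± 0.11, adjusted p = 3.86e-06). Cars1, which loads cysteine, had 34.7, 43.2 and 51.9 CPM on P7, against 20.0, 37.2, 27.2, 26.6 and 20.5 CPM on P36; 1 P36 library, the second, lay inside the P7 range (0.78 ± 0.14, adjusted p = 4.05e-05). Yars1, which loads tyrosine, had 36.0, 46.4 and 61.5 CPM on P7, against 32.4, 39.4, 23.5, 33.8 and 34 CPM on P36 (0.56 ± 0.10, adjusted p = 9.39e-05). Only the second P36 library reached into its P7 range.

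The other 3 genes that rose in sham mice belong to the multi-synthetase complex, in which several cytosolic enzymes are held together by scaffold proteins. Eprs1 averaged 154 ± 31.8 CPM on P7 and 107 ± 12.4 CPM on P36 (log2 fold change 0.57 ± 0.13, adjusted p = 0.00186). Iars1 averaged 65.6 ± 17.3 CPM on P7 and 44.3 ± 6.73 CPM on P36 (0.61 ± 0.16, adjusted p = 0.0057), and missed the threshold without sham P36 library 1 (0.51, adjusted p = 0.0502). Lars1 averaged 37.7 ± 6.18 CPM on P7 and 30.7 ± 2.78 CPM on P36 (0.35 ± 0.10, adjusted p = 0.0104). Its call rested on single libraries: it was lost without sham P36 library 2 or 6 or sham P7 library 2 or 5 (0.22 to 0.30, adjusted p 0.0529 to 0.11) and in a fit of these 2 groups alone (0.30, adjusted p = 0.115). Among the 7 listed genes of the complex 3 were called higher (median log2 fold change 0.18), and among the 12 other cytosolic genes 4 were (median 0.15).

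Against the direction of most called cytosolic genes, Wars1 and Hars1 fell. Wars1, the tryptophan enzyme, also known as an interferon-induced gene, had 12.4, 17.9 and 23.5 CPM as lowest, median and highest on P7, against 22.8, 28.9, 24.2, 24.0 and 26.6 CPM on P36 (log2 fold change -0.46 ± 0.12, adjusted p = 0.00568). Hars1, the histidine enzyme, had 25.1, 35.6 and 43.8 CPM on P7, against 37.7, 51.2, 46.3, 57.1 and 44.7 CPM on P36 (-0.43 ± 0.14, adjusted p = 0.0287). Its call was lost without sham P36 library 5 or sham P7 library 4 or 7 (-0.39 to -0.35, adjusted p 0.0606 to 0.106). The single mitochondrial gene called by edgeR was Nars2, the asparagine enzyme of the organelle. It had 8.24, 10.6 and 13.2 CPM on P7, against 15.2, 15.0, 13.4, 14.5 and 18.6 CPM on P36 (-0.47 ± 0.13, adjusted p = 0.0104). The groups did not overlap for Nars2, while single libraries overlapped for Wars1 and Hars1. Its cytosolic counterpart Nars1, the second most abundant cytosolic synthetase per kilobase, averaged 137 ± 24.8 CPM on P7 and 125 ± 21.4 CPM on P36 and was not called.

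Because many cytosolic synthetase genes are known ATF4 targets, the promoter windows were searched on both strands for TGATGNAA, the letters of the C/EBP-ATF response element. RefSeq windows of 300 bases (250 before and 50 after the gene start, GRCm38.p6) were used for 26 members, 12 cytosolic and 14 mitochondrial. Cars1, Hars1, Lars1, Nars1, Rars1, Vars1, Wars1, Hars2 and Pars2 were not searched. The letters stood in a window of 5 of the 12 cytosolic genes and of 0 of the 14 mitochondrial genes, against 4.51% of all 27025 genes with a window. Of the 5 cytosolic genes called higher on P7 against P36 in sham mice that had a window, 3 held it (Gars1, Iars1 and Yars1), and of the other 7 cytosolic genes 2 did (Aars1 and Tars1). The stretches around the match follow, to show it beside the start of the 3 risen genes and then of the 2 others. They are read along the gene's strand, with the matched letters or their reverse complement in capitals. A match is a run of letters, and binding was not measured.
Gars1, plus strand, chr6:55037945-55037984: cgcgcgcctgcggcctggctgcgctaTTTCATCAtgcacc
Iars1, plus strand, chr13:49682111-49682150: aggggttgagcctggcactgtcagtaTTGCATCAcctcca
Yars1, plus strand, chr4:129189880-129189919: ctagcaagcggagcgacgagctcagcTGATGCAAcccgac
Tars1, minus strand, chr15:11399660-11399699: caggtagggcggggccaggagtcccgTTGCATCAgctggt
Aars1, plus strand, chr8:111033704-111033864: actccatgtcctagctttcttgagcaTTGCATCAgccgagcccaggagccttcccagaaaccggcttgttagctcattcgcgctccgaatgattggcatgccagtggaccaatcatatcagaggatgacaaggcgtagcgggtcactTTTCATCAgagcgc

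Aars1 held 2 matches, the second just after the annotated start. Its median in sham mice was 422 CPM on P7, 396 CPM on P21 and 391 CPM on P36, and it was called in neither sham comparison of these diets. The window of Sars1, one of the genes with no overlap between P7 and P36, does not hold the letters.

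In SG mice on P7 against P36, 5 cytosolic synthetases rose and 1 mitochondrial synthetase fell, with 18.8% of all genes called, 10.2% higher and 8.65% lower. By edgeR, DESeq2 or limma-voom 0 cytosolic genes fell and 0 mitochondrial genes rose. At an unadjusted p under 0.05, 2 cytosolic genes fell and 0 mitochondrial genes rose, against 31.2% of all genes in either direction. The called genes were Sars1, Gars1, Cars1, Yars1 and Iars1, with Nars2 lower. Without SG P7 library 7 the counts were 5 cytosolic higher, 1 cytosolic lower and 1 mitochondrial lower (share of all genes called in that fit not given). The added gene was Wars1, at a log2 fold change of -0.35 ± 0.13 (adjusted p = 0.0419) without library 7 and -0.28 (adjusted p = 0.123) with it. The medians were 0.20 for the cytosolic and 0.03 for the mitochondrial genes with library 7, 0.21 and -0.04 without it, and -0.01 for all genes.

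Sars1 had 66.2, 104 and 126 CPM as lowest, median and highest in SG P7 livers, against 58.9, 50.3, 46.8 and 51.2 CPM in SG P36 livers (log2 fold change 0.97 ± 0.13, adjusted p = 1.43e-07). The groups did not overlap even at library 7, the lowest of P7, and the fold change was 1.05 without it. Gars1 had 49.1, 78.3 and 92.4 CPM on P7, against 40.9, 46.3, 40.7 and 46.3 CPM on P36 (0.83 ± 0.12, adjusted p = 1.04e-06), with 0.91 when library 7, again the lowest, was left out. Cars1 had 22.4, 40.5 and 54.3 CPM on P7, against 21.8, 23.0, 21.6 and 26.1 CPM on P36 (0.85 ± 0.15, adjusted p = 3.45e-05), and overlapped through library 7 alone. Yars1 had 35.7, 44.1 and 56.2 CPM on P7, against 31.1, 33.7, 30.3 and 29.3 CPM on P36, with no overlap (0.61 ± 0.11, adjusted p = 8.14e-05).

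Iars1 averaged 62.1 ± 8.74 CPM (n = 7) on P7 and 45.2 ± 10.6 CPM (n = 4) on P36 in SG mice (log2 fold change 0.49 ± 0.17, adjusted p = 0.0397). SG P36 library 1, at 29.5 CPM, lay far below the other 3, and without it the change was 0.34 (adjusted p = 0.226); the call was also lost without SG P36 library 3 or 4 or SG P7 library 1, 3, 4 or 6, where adjusted p was 0.0538 or more. Nars2 had 8.80, 9.81 and 14.6 CPM as lowest, median and highest on P7, against 15.2, 18.6, 15.2 and 13.2 CPM on P36 (-0.50 ± 0.14, adjusted p = 0.00942). Its highest P7 value came from library 7, without which the change was -0.58; without SG P36 library 2 it was -0.41 (adjusted p = 0.0607).

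**Figure D1:**
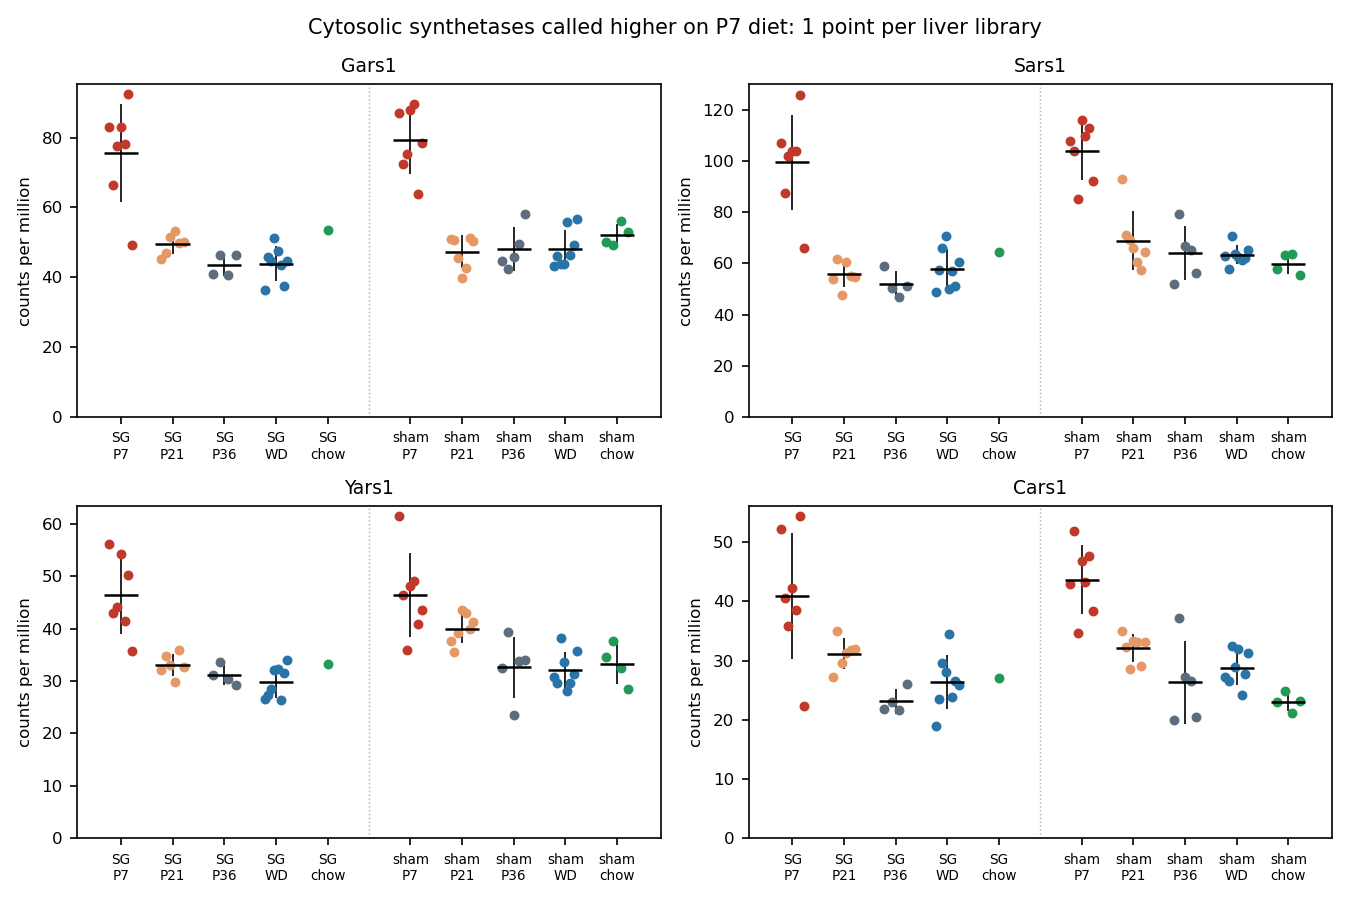
CPM (vertical axis) of Gars1, Sars1, Yars1 and Cars1 in every liver library, by group, with SG groups left of the dotted line and sham groups right of it; bars mark the mean and SD. Most P7 points stand above the other diets in both surgeries, and the lowest SG P7 point of each gene is library 7 (49.1 CPM for Gars1, 66.2 for Sars1, 35.7 for Yars1 and 22.4 for Cars1).

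Against P21, in place of P36, some of the same cytosolic synthetases were called higher on P7. The P7 libraries are the same in both sets of comparisons. In sham mice 5 cytosolic genes rose and 4 fell, and 2 mitochondrial genes fell, with 26.3% of all genes called, 13.0% higher and 13.4% lower. Of the mitochondrial genes 0 rose by edgeR, DESeq2 or limma-voom (0 unadjusted). DESeq2 called 2 mitochondrial genes lower and limma-voom 3. At an unadjusted p under 0.05, 6 mitochondrial genes fell, against 37.7% of all genes in either direction. The medians were 0.09 for the cytosolic and -0.20 for the mitochondrial genes, against 0.05 for all genes.

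Gars1, with 63.9, 78.4 and 89.5 CPM as lowest, median and highest in sham P7 livers, had 39.7, 50.5 and 51.3 CPM in sham P21 livers. The groups did not overlap (log2 fold change 0.79 ± 0.10, adjusted p = 4.86e-08). Sars1 averaged 104 ± 11.4 CPM on P7 and 68.8 ± 11.6 CPM on P21 (n = 7 each; 0.64 ± 0.10, adjusted p = 6.75e-06). Cars1 averaged 43.7 ± 5.82 CPM on P7 and 32.0 ± 2.35 CPM on P21 (0.49 ± 0.12, adjusted p = 0.00241). Calls of 2 more genes depended on single libraries. Eprs1 (0.38, adjusted p = 0.0162) lost its call without sham P21 library 3, 4 or 6 or sham P7 library 2 (0.26 to 0.34, adjusted p 0.0509 to 0.113). Yars1 (0.26, adjusted p = 0.0351) lost its call without any 1 of 10 of the 14 libraries, sham P21 libraries 1 to 6 and sham P7 libraries 2, 3, 5 and 6 (0.14 to 0.25, adjusted p 0.0595 to 0.295), and without sham P21 libraries 1 and 2 together (0.21, adjusted p = 0.128).

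The cytosolic genes that fell in sham mice on P7 against P21 were Qars1, Wars1, Hars1 and Kars1. Qars1, the glutamine enzyme, had 40.7, 46.6 and 52.5 CPM as lowest, median and highest on P7, against 55.5, 59.4 and 78.9 CPM on P21, with no overlap (log2 fold change -0.39 ± 0.09, adjusted p = 0.00178). Wars1 averaged 17.8 ± 3.73 CPM on P7 and 24.8 ± 3.26 CPM on P21 (-0.44 ± 0.11, adjusted p = 0.00262). Hars1 averaged 34.1 ± 6.23 CPM on P7 and 49.0 ± 7.76 CPM on P21 (-0.48 ± 0.13, adjusted p = 0.00422). Sham P21 libraries 1 and 2 held the highest Hars1 of their group, and without both the change was -0.34 (adjusted p = 0.06). Kars1, the lysine enzyme, averaged 51.9 ± 4.75 CPM on P7 and 63.4 ± 5.67 CPM on P21 (-0.25 ± 0.09, adjusted p = 0.0271); its call was lost without sham P21 library 1 or 2 or sham P7 library 4 (-0.23 to -0.21, adjusted p 0.0593 to 0.0684) and without libraries 1 and 2 together (-0.18, adjusted p = 0.157).

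Among the mitochondrial genes Hars2, the histidine enzyme, had 17.7, 19.1 and 20.7 CPM on P7 in sham mice, against 23.2, 26.4 and 27.8 CPM on P21, with no overlap (-0.39 ± 0.08, adjusted p = 0.000269). Nars2 averaged 10.7 ± 1.5 CPM on P7 and 14.6 ± 1.64 CPM on P21 (-0.40 ± 0.12, adjusted p = 0.0116). Both histidine enzymes were thus called lower in this comparison, the cytosolic one not without sham P21 libraries 1 and 2.

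In SG mice on P7 against P21, 4 cytosolic synthetases rose and 3 mitochondrial synthetases fell, with 9.7% of all genes called, 5.51% higher and 4.2% lower. By edgeR, DESeq2 or limma-voom 0 cytosolic genes fell and 0 mitochondrial genes rose. At an unadjusted p under 0.05, 0 cytosolic genes fell and 2 mitochondrial genes rose, against 24.7% of all genes in either direction. Without SG P7 library 7 there were 6 cytosolic genes higher, with Cars1 (log2 fold change 0.47, adjusted p = 0.00512) and Eprs1 (0.38, adjusted p = 0.046) joining, and 3 mitochondrial genes lower. The share of all genes called in that fit is not given. The medians were 0.23 for the cytosolic and 0.05 for the mitochondrial genes with library 7, 0.23 and 0.02 without it, and -0.02 for all genes.

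Sars1 averaged 99.4 ± 18.4 CPM (n = 7) on P7 and 55.7 ± 5.08 CPM (n = 6) on P21 in SG mice, with no overlap (log2 fold change 0.81 ± 0.11, adjusted p = 1.02e-06). Gars1 averaged 75.6 ± 14.1 CPM on P7 and 49.5 ± 2.92 CPM on P21 (0.58 ± 0.10, adjusted p = 0.000138; 0.66 without library 7). Yars1 averaged 46.4 ± 7.37 CPM on P7 and 33.1 ± 2.15 CPM on P21 (0.45 ± 0.10, adjusted p = 0.00175). These 3 calls held whichever library was left out. Aars1 averaged 422 ± 57.9 CPM on P7 and 287 ± 32.4 CPM on P21 (0.52 ± 0.17, adjusted p = 0.0374), and lost its call without any 1 of 9 of the 13 libraries, SG P21 libraries 1 to 4 and 7 and SG P7 libraries 1, 4, 5 and 6 (adjusted p 0.0501 to 0.0818).

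The mitochondrial calls in SG mice on P7 against P21 were all close to the threshold. Hars2 averaged 19.1 ± 1.24 CPM on P7 and 22.4 ± 2.37 CPM on P21 (log2 fold change -0.26 ± 0.08, adjusted p = 0.0332). Nars2 averaged 10.8 ± 2.19 CPM on P7 and 14.0 ± 2.10 CPM on P21 (-0.40 ± 0.13, adjusted p = 0.0397). Yars2, the tyrosine enzyme, averaged 10.8 ± 0.881 CPM on P7 and 13.7 ± 2.10 CPM on P21 (-0.38 ± 0.12, adjusted p = 0.0408). Hars2 lost its call without any 1 of SG P21 libraries 1 to 4 and 7 and SG P7 libraries 1, 3, 4 and 6 (adjusted p 0.061 to 0.133). Nars2 lost its call without any 1 of SG P21 libraries 3, 4 and 7 and SG P7 libraries 1, 2, 3, 5 and 6 (adjusted p 0.0693 to 0.14). For Yars2 these were SG P21 libraries 2 to 5 and 7 and SG P7 libraries 1, 2, 3, 5 and 6 (adjusted p 0.0529 to 0.127).

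**Figure D2:**
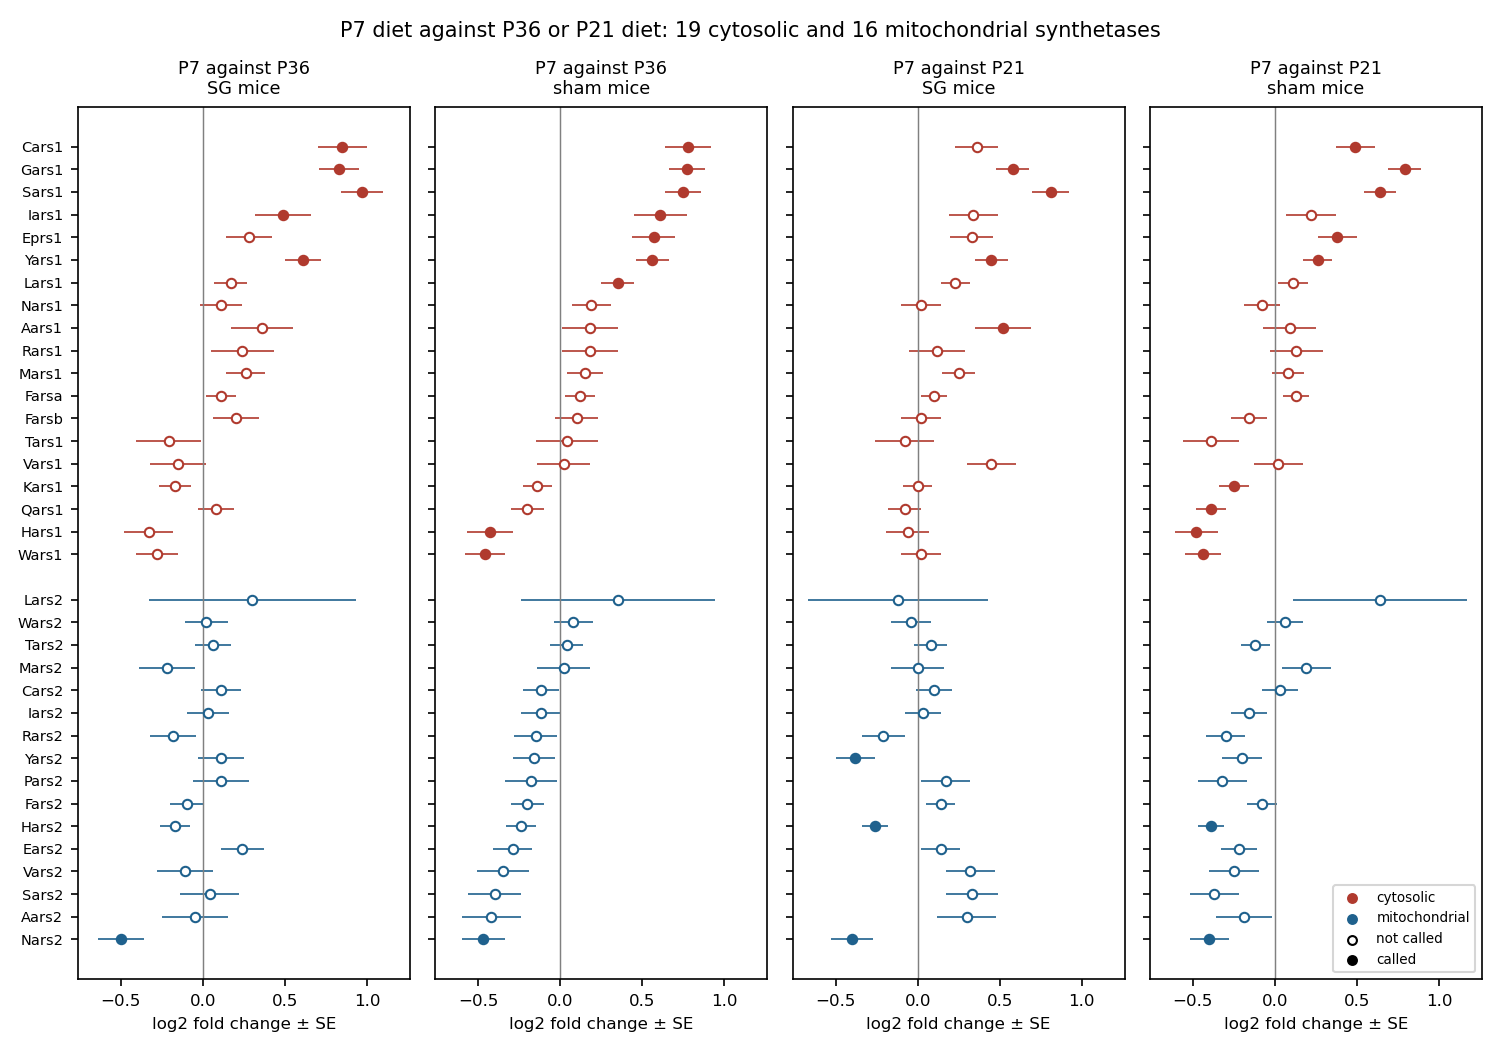
Log2 fold change with its SE (horizontal axis) of the 19 cytosolic genes (red, upper block) and the 16 mitochondrial genes (blue, lower block) in 4 comparisons of P7 with P36 or P21, SG mice left of sham mice in each pair; filled points were called. Filled points right of 0 are found in the cytosolic block only, and Nars2, in the bottom row, lies at -0.50, -0.47, -0.40 and -0.40 from left to right.

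The P36 and P21 comparisons of each surgery share their P7 libraries. Set side by side, the log2 fold changes of Gars1 were 0.83 in SG and 0.77 in sham mice against P36, and 0.58 in SG and 0.79 in sham mice against P21. Those of Sars1 were 0.97 in SG and 0.75 in sham mice against P36, and 0.81 in SG and 0.64 in sham mice against P21. Over these 4 comparisons 11 of the 19 cytosolic genes were called higher in none. The share of all genes called higher in none of the 4 is not given, so this count has no background here. Nars2 was called lower in each, Hars2 in both P21 comparisons, and Wars1 and Hars1 in both sham comparisons.

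**Figure D3:**
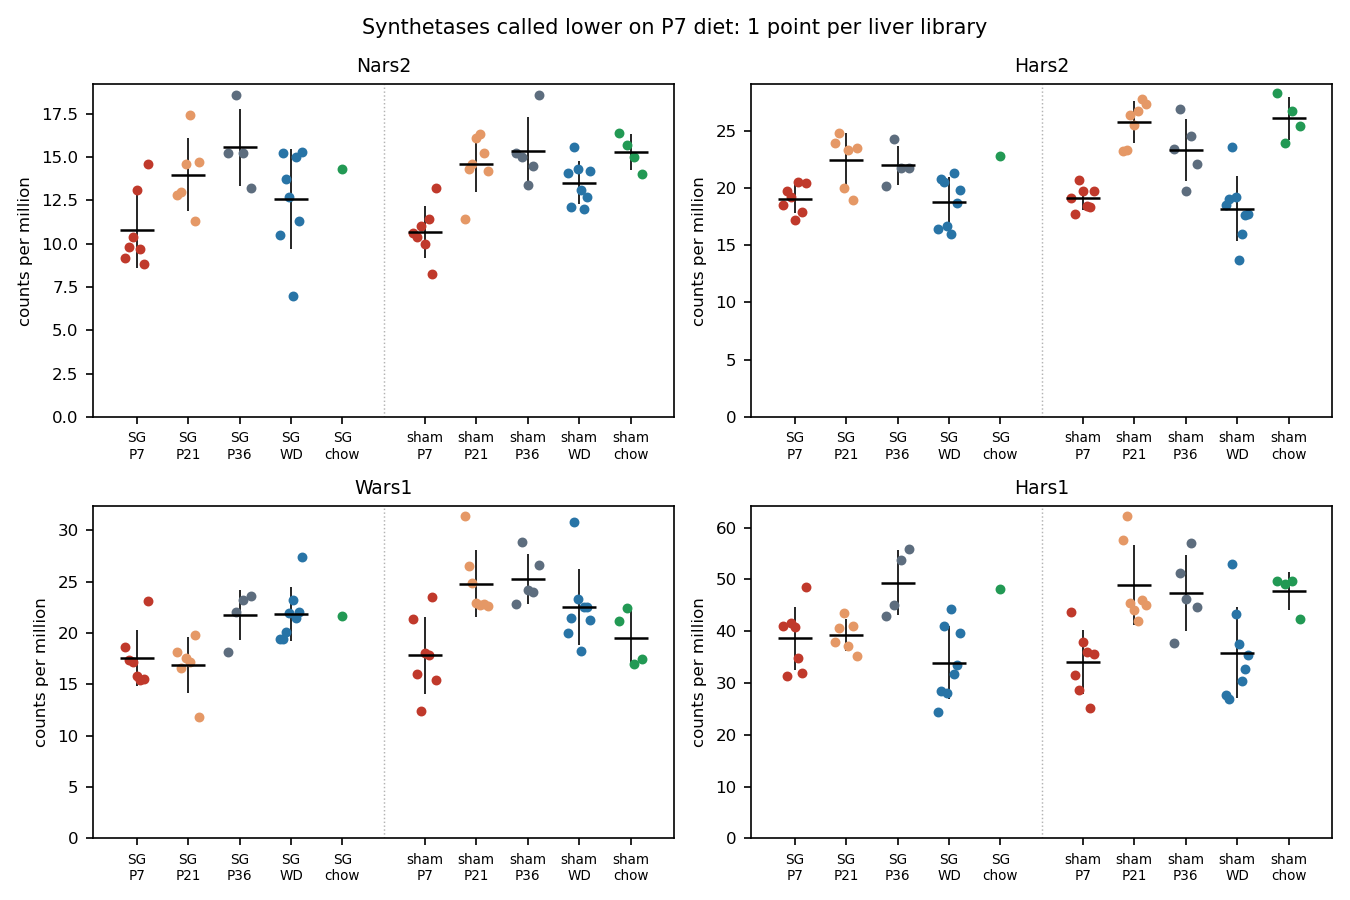
CPM (vertical axis) of Nars2, Hars2, Wars1 and Hars1 in every liver library, by group, with SG groups left of the dotted line and sham groups right of it; bars mark the mean and SD. Nars2 has its lowest group median on P7 in both surgeries (9.81 CPM in SG and 10.6 CPM in sham mice). In SG mice its P7 range, 8.80 to 14.6 CPM, lies within that on WD, 6.95 to 15.3 CPM. Hars1 in sham mice has medians of 35.6 CPM on P7 and 34.2 CPM on WD.

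Per library, the mean log2 CPM of the 19 cytosolic genes minus that of the 16 mitochondrial genes gives the balance of the sets. It ran from 1.82 through a median of 2.00 to 2.30 in sham P7 livers, from 1.66 through 1.81 to 2.13 in sham P21 livers, and was at most 1.82, with a median of 1.75, in sham P36 livers. In SG livers it ran from 1.71 through 2.04 to 2.17 on P7, from 1.69 through 1.78 to 1.90 on P21 and from 1.67 through 1.76 to 1.83 on P36. The P7 livers of both surgeries thus reached the highest differences, with the lowest sham P7 and the highest sham P36 library both at 1.82. In SG mice library 7 was the lowest P7 library, at 1.71, and the other 6 lay at 1.88 or above. Being made from the members themselves, this difference is given without a test.

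**Figure D4:**
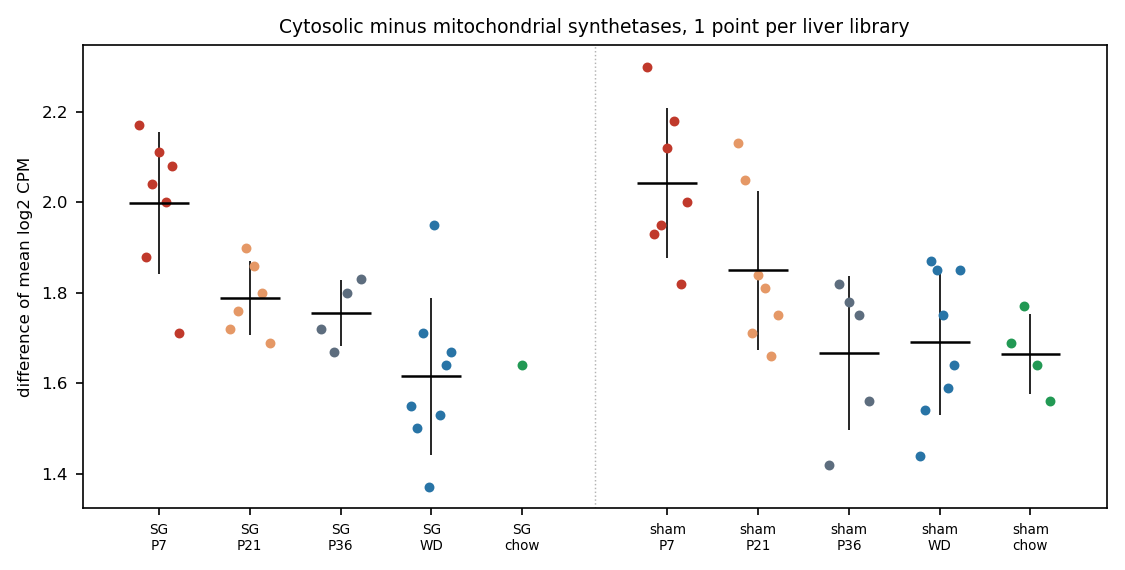
Mean log2 CPM of the cytosolic synthetases minus that of the mitochondrial synthetases (vertical axis) in each library, by group, with SG groups left of the dotted line and sham groups right of it; bars mark the mean and SD. P7 libraries reach 2.17 in SG and 2.30 in sham mice, and every WD and chow library lies at 1.95 or below.

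A linear fit over P7, P21 and P36, averaged over both surgeries, gave the change per 10 percentage points of calories from protein. At fixed fat, more protein also means fewer calories left for carbohydrate. With more protein 8 cytosolic genes fell and 2 rose, and 2 mitochondrial genes rose, with 30.5% of all genes called, 14.5% higher and 16.0% lower. Of the mitochondrial genes 0 fell by edgeR, DESeq2 or limma-voom (0 unadjusted). The steepest falls per 10 points were those of Sars1 (-0.30 ± 0.03 log2 units, adjusted p = 3.38e-11), Cars1 (-0.28 ± 0.03, adjusted p = 1.16e-08), Gars1 (-0.27 ± 0.03, adjusted p = 7e-11) and Yars1 (-0.20 ± 0.03, adjusted p = 4.52e-08). Iars1, Eprs1, Lars1 and Mars1, all of the complex, followed with -0.19, -0.15, -0.09 and -0.07. The call of Mars1, the methionine enzyme (adjusted p = 0.0484), was lost without any 1 of 29 of the 36 libraries, among them SG P7 library 7 (adjusted p = 0.0613), and without sham P21 libraries 1 and 2 together (adjusted p = 0.052). Without SG P7 library 7, 7 cytosolic genes fell and 2 rose, and 3 mitochondrial genes rose, with Vars2 added and Mars1 lost. The share of all genes called in that fit is not given. Rising with protein were Nars2 (0.17 ± 0.03, adjusted p = 0.000119), Wars1 (0.13 ± 0.03, adjusted p = 0.001), Hars1 (0.13 ± 0.04, adjusted p = 0.00379) and Hars2 (0.07 ± 0.02, adjusted p = 0.0135). Whether the changes followed a straight line was not tested, so a slope does not show equal steps between the diets. In sham mice Gars1 ran from 63.9 to 89.5 CPM on P7, 39.7 to 51.3 on P21 and 42.4 to 58.2 on P36. Hars2 in sham mice ran from 17.7 to 20.7, 23.2 to 27.8 and 19.7 to 26.9 CPM on these diets. The means of Cars1 in sham mice were 43.7, 32.0 and 26.3 CPM.

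Between P36 and P21 in sham mice 0 of the 35 members were called by edgeR, DESeq2 or limma-voom, and 0.087% of all genes were called. At an unadjusted p under 0.05 there were 7 members and 9.08% of all genes. In SG mice 3 members were called, with 7.69% of all genes called, 3.68% higher and 4.01% lower. Vars1 averaged 28.3 ± 4.57 CPM (n = 4) on P36 and 17.9 ± 2.03 CPM (n = 6) on P21 (log2 fold change 0.60 ± 0.17, adjusted p = 0.024). Cars1 averaged 23.1 ± 2.06 CPM on P36 and 31.2 ± 2.56 CPM on P21 (-0.49 ± 0.15, adjusted p = 0.0314). Yars2 averaged 10.2 ± 2.03 CPM on P36 and 13.7 ± 2.10 CPM on P21 (-0.49 ± 0.15, adjusted p = 0.0261). Each of the 3 lost its call without single libraries: Vars1 without SG P36 library 2 or 3 or SG P21 library 7, Cars1 without any 1 of SG P36 libraries 1 to 3 and SG P21 libraries 2 to 5 and 7, and Yars2 without any 1 of SG P36 libraries 1, 3 and 4 and SG P21 libraries 2, 5 and 7 (adjusted p 0.0515 to 0.121).

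Genes that work beside the synthetases were followed through lists chosen with earlier results in view. Of 8 genes of the amino acid response, 4 rose in SG mice on P7 against P36 (median log2 fold change 1.57) with library 7, which lay low in them, and 6 (median 1.74) without it. In sham mice 7 rose (median 2.45). In sham mice Trib3 averaged 85.2 ± 30.7 CPM on P7 and 2.74 ± 0.574 CPM on P36, and Asns, the asparagine synthetase gene, 40.1 ± 16.7 CPM on P7 and 1.60 ± 0.922 CPM on P36. The mRNA of Atf4 itself was called in neither. A further list held 25 partners of the synthetases (scaffold proteins, elongation factors that carry charged transfer RNA, and enzymes that proofread, repair or export it). With library 7, 2 partners rose in SG mice, against 10.2% of all genes called higher, and without it 3 rose. In sham mice 1 rose and 1 fell, against 7.48% of all genes called higher and 8.19% lower. With all libraries, the shares of the partners were near or below those of all genes. Xpot, the exporter of transfer RNA from the nucleus, rose in both: it averaged 90.0 ± 10.7 CPM on P7 and 61.0 ± 15.0 CPM on P36 in SG mice (0.59 ± 0.14, adjusted p = 0.00126). In sham mice it averaged 96.4 ± 14.0 CPM on P7 and 75.3 ± 12.4 CPM on P36 (0.41 ± 0.13, adjusted p = 0.0189). Aimp2, a scaffold of the complex, fell in sham mice, with 9.55 ± 1.16 CPM on P7 and 12.8 ± 0.983 CPM on P36 (-0.37 ± 0.11, adjusted p = 0.0186), while Aimp1, another scaffold, rose in SG mice (0.34 ± 0.12, adjusted p = 0.0312). Of 14 genes of mitochondrial translation and transcription, 0 were called in SG mice by edgeR with library 7 (2 at an unadjusted p under 0.05) or without it, and in sham mice Tsfm, a mitochondrial elongation factor, fell (-0.57 ± 0.15, adjusted p = 0.00714).

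WD has a protein share between P7 and P21 but more fat, and the effects of protein, fat and carbohydrate cannot be told apart against it. On P7 against WD, 13 cytosolic genes rose and 1 fell in SG mice, with 33.9% of all genes called (14.2% higher, 19.7% lower). In sham mice 10 rose and 1 fell, with 35.7% of all genes called (17.3% higher, 18.4% lower). Of the mitochondrial genes 0 rose in SG or sham mice by edgeR, DESeq2 or limma-voom (0 unadjusted). In SG mice 0 fell by edgeR or limma-voom, while 1 fell by DESeq2 and 1 by edgeR at an unadjusted p under 0.05. The latter was Lars2 (-1.29, adjusted p = 0.0522 by edgeR). Without SG P7 library 7 edgeR called Nars2 (-0.31, adjusted p = 0.0416), which it did not with that library (-0.23, adjusted p = 0.136). In sham mice 3 fell. Without SG P7 library 7 the cytosolic count in SG mice was 12 higher and 1 lower (share of all genes called in that fit not given). Iars1 had 52.1, 61.3 and 74.4 CPM as lowest, median and highest on P7 in SG mice, against 27.7, 32.6 and 40.7 CPM on WD, with no overlap (0.86 ± 0.14, adjusted p = 6.64e-06). Aars1 averaged 422 ± 57.9 CPM on P7 and 256 ± 59.2 CPM on WD there (0.71 ± 0.15, adjusted p = 0.000311). In sham mice Aars1 averaged 425 ± 88.0 CPM on P7 and 273 ± 91.6 CPM on WD (0.65 ± 0.15, adjusted p = 0.000845). The log2 fold changes of Gars1 were 0.78 in SG and 0.72 in sham mice, of Sars1 0.78 and 0.72, of Eprs1 0.66 and 0.68, of Cars1 0.63 and 0.61 and of Yars1 0.63 and 0.54.

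Wars1 was the cytosolic gene that fell on P7 against WD, by 0.33 on the log2 scale in SG mice (adjusted p = 0.0142, and 0.0651 without SG WD library 8) and by 0.33 in sham mice (adjusted p = 0.0138, and 0.0537 without sham P7 library 4). Without SG WD libraries 5 and 7 the change of Wars1 in SG mice was -0.30 (adjusted p = 0.0507). The mitochondrial genes that fell in sham mice were Fars2 (phenylalanine, -0.25 ± 0.08, adjusted p = 0.0178), Iars2 (-0.31 ± 0.11, adjusted p = 0.0181) and Nars2 (-0.33 ± 0.12, adjusted p = 0.0273). Iars2 and Nars2 were not called without sham P7 library 7 (adjusted p of 0.056 and 0.0776). Calls of 4 cytosolic genes were lost without single libraries. Nars1 in SG mice (0.31, adjusted p = 0.0216) was lost without SG P7 library 1, 4 or 6 or SG WD library 1 (adjusted p 0.0524 to 0.0599). Kars1 in SG mice (0.22, adjusted p = 0.039) was lost without SG P7 library 1, 4, 5 or 7 or SG WD library 1, 2, 5, 6 or 7 (adjusted p 0.0602 to 0.0886), and without SG WD libraries 5 and 7 together (0.18, adjusted p = 0.136). Mars1 in sham mice (0.30, adjusted p = 0.011) was lost without sham P7 library 3 (adjusted p = 0.0533). Farsb in sham mice (0.28, adjusted p = 0.0424) was lost without sham P7 library 2, 4, 5, 6 or 8 or sham WD library 2, 4, 5, 6 or 7 (adjusted p 0.0604 to 0.169).

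On P21 against WD, 4 cytosolic genes rose and 2 fell in SG mice, with 29.5% of all genes called (12.4% higher, 17.1% lower). In sham mice 11 rose, with 32.1% of all genes called (14.4% higher, 17.8% lower), and 0 fell by edgeR, DESeq2 or limma-voom (0 unadjusted). Of the 16 mitochondrial genes 3 rose and 1 fell in SG mice, where 6 had a positive log2 fold change and the median was -0.12, against -0.04 for all genes. In sham mice 3 rose and 1 fell, and the median was 0.17, against 0.00 for all genes. Scaled by library totals alone, the median log2 fold change of all genes moved from -0.04 to -0.18 in SG and from 0.00 to -0.13 in sham mice, and that of the mitochondrial set from -0.12 to -0.27 in SG and from 0.17 to 0.06 in sham mice. Hars2 averaged 22.4 ± 2.37 CPM on P21 and 18.8 ± 2.15 CPM on WD in SG mice (log2 fold change 0.28 ± 0.08, adjusted p = 0.00792; 0.22, adjusted p = 0.0652 without SG WD libraries 5 and 7). In sham mice it averaged 25.7 ± 1.85 CPM on P21 and 18.2 ± 2.82 CPM on WD (0.47 ± 0.08, adjusted p = 7.22e-06). Rars2, the arginine enzyme, averaged 16.3 ± 2.72 CPM on P21 and 11.4 ± 2.73 CPM on WD in sham mice (0.48 ± 0.12, adjusted p = 0.00154). In SG mice its change of 0.34 (adjusted p = 0.0328) was lost without SG P21 library 1, 2, 3 or 7 or SG WD library 1, 6, 7 or 8 (adjusted p 0.0509 to 0.107), and without SG WD libraries 5 and 7 together (0.31, adjusted p = 0.086). Yars2 averaged 13.7 ± 2.10 CPM on P21 and 9.74 ± 1.96 CPM on WD in SG mice (0.52 ± 0.12, adjusted p = 0.0012).

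By adjusted p, Kars1, Farsb and Qars1 came first among the cytosolic genes on P21 against WD in sham mice, while Aars1 and Tars1 had larger fold changes. Kars1 averaged 63.4 ± 5.67 CPM on P21 and 48.2 ± 8.04 CPM on WD (0.36 ± 0.08, adjusted p = 0.00066), and Farsb 40.3 ± 3.41 CPM on P21 and 28.9 ± 3.83 CPM on WD (0.44 ± 0.11, adjusted p = 0.00168). Qars1 averaged 63.7 ± 9.88 CPM on P21 and 48.3 ± 9.16 CPM on WD (0.37 ± 0.09, adjusted p = 0.00171). Kars1 and Qars1 were among the genes lower on P7 than on P21. Aars1 (0.56, adjusted p = 0.00444), Hars1 (0.42, adjusted p = 0.00783), Yars1 (0.28, adjusted p = 0.014), Tars1 (threonine, 0.49, adjusted p = 0.0201) and Nars1 (0.30, adjusted p = 0.0279) came next. Without sham P21 libraries 1 and 2, 7 members were called in place of 15 (share of all genes called in that fit not given). Leaving out library 2 alone lost the calls of Lars1, Nars1, Eprs1, Iars1 and Tars2 (adjusted p 0.0576 to 0.114). Nars1, Eprs1 and Iars1 were also lost without sham P21 library 1. Eprs1 was lost without sham WD library 2, 6 or 7 as well, and Iars1 without sham WD library 2 or 6. Without sham P21 libraries 1 and 2 together, Hars1 (0.28, adjusted p = 0.115), Aars1 (0.42, adjusted p = 0.0578), Qars1 (0.23, adjusted p = 0.0652) and Tars1 (0.46, adjusted p = 0.0639) were not called. Neither were Lars1 (0.21, adjusted p = 0.0917), Nars1 (0.19, adjusted p = 0.216), Eprs1 (0.19, adjusted p = 0.284), Iars1 (0.23, adjusted p = 0.263) and Tars2 (0.25, adjusted p = 0.0624). In SG mice the called cytosolic genes were Iars1 (0.52, adjusted p = 0.00599), Farsb (0.36, adjusted p = 0.0162), Eprs1 (0.33, adjusted p = 0.0336) and Nars1 (0.29, adjusted p = 0.0456) higher, and Wars1 (-0.35, adjusted p = 0.0169) and Vars1 (-0.40, adjusted p = 0.0351) lower. All but Iars1 were lost without 1 or more single libraries. For Wars1 this was SG P21 library 7 (adjusted p = 0.0847), and for Farsb SG P21 library 4 or SG WD library 1 (adjusted p 0.0606 to 0.0616). For Vars1 these were SG P21 libraries 1, 2, 3 and 7 and SG WD libraries 4 and 5, for Eprs1 SG P21 libraries 3, 4, 5 and 7 and SG WD libraries 1, 2, 6 and 7, and for Nars1 all but SG P21 library 1 and SG WD library 8. Without SG WD libraries 5 and 7 together, Vars1 (-0.40, adjusted p = 0.0677), Nars1 (0.28, adjusted p = 0.0783), Farsb (0.30, adjusted p = 0.0742) and Eprs1 (0.30, adjusted p = 0.091) were not called. The remaining mitochondrial calls were Mars2 lower (-0.41, adjusted p = 0.0241) and Tars2 higher (0.23, adjusted p = 0.0483) in sham mice and Fars2 lower in SG mice (-0.28 ± 0.09, adjusted p = 0.0137), of which Mars2 was lost without any 1 of 7 single libraries (sham P21 3, 5 and 6, sham WD 1, 2, 7 and 8) and Tars2 without any 1 of 8 (sham P21 2, 5, 6 and 7, sham WD 1, 2, 5 and 6).

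Cell type markers moved with WD. Summed hepatocyte markers ran from 66100 to 84400 CPM in sham P21 livers and from 43100 to 74200 CPM in sham WD livers. The 5 macrophage markers summed to 103 to 236 CPM in sham P21 and 214 to 692 CPM in sham WD livers, and the 5 markers of lipid-associated macrophages to 47.9 to 80.8 CPM in sham P21 and 43.0 to 722 CPM in sham WD livers. Fewer cells of a type and less RNA per cell cannot be told apart in whole liver, and the part of these cells in the results against WD was not tested. Marker sums also differed between the protein diets. In sham mice the median sum on P7, P21 and P36 was 121, 62.3 and 91.2 CPM for lipid-associated macrophages, 364, 224 and 272 CPM for stellate cells, 161, 157 and 184 CPM for macrophages, 2520, 3870 and 4130 CPM for the fat-cell list and 92200, 78200 and 77200 CPM for hepatocytes. In SG mice it was 94.5, 118 and 88.2 CPM for lipid-associated macrophages, 246, 291 and 292 CPM for stellate cells, 166, 272 and 246 CPM for macrophages, 2010, 3990 and 2240 CPM for the fat-cell list and 91900, 91800 and 89800 CPM for hepatocytes. The part of these cells in the results between the protein diets was not tested.

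In sham mice on WD against chow, 1 cytosolic gene rose and 3 fell, and 3 mitochondrial genes fell, with 31.7% of all genes called (17.1% higher, 14.5% lower). Of the mitochondrial genes 0 rose by edgeR, DESeq2 or limma-voom (0 unadjusted). Hars2 averaged 18.2 ± 2.82 CPM (n = 8) on WD, against 28.3, 23.9, 26.7 and 25.4 CPM on chow, with no overlap (log2 fold change -0.48 ± 0.09, adjusted p = 4.03e-05). Qars1 averaged 48.3 ± 9.16 CPM on WD, against 69.5, 62.4, 74.7 and 65.8 CPM on chow (-0.46 ± 0.11, adjusted p = 0.00078). Rars2 (-0.45, adjusted p = 0.0105), Kars1 (-0.30, adjusted p = 0.0145), Ears2, the glutamate enzyme (-0.36, adjusted p = 0.0226), and Hars1 (-0.38, adjusted p = 0.04) also fell, and Cars1 rose (0.36, adjusted p = 0.0457). Cars1 lost its call whichever of the 12 libraries was left out. Hars1 lost its call without sham WD library 1, 2 or 6 or sham chow library 1, 2 or 5, Kars1 and Ears2 without chow library 1 or 2, and Rars2 without chow library 5 (adjusted p = 0.0668). Scaled by library totals alone, the median log2 fold change of all genes moved from -0.01 to 0.25, that of the cytosolic set from -0.14 to 0.08 and that of the mitochondrial set from -0.17 to 0.08. The sign of both sets thus turned, while both stayed below all genes.

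The comparison of SG with sham mice on one diet gives the difference that goes with surgery. On P7, 0 of 35 members were called between SG and sham mice by edgeR, DESeq2 or limma-voom, and 0.0% of all genes were called. At an unadjusted p under 0.05 there were 0 members and 4.23% of all genes. The log2 fold changes of the members ran from -0.18 to 0.17. On P36 the same 3 tools called 0 members, with 2.22% of all genes called, 1.22% higher and 1.0% lower. At an unadjusted p under 0.05 there were 3 members and 14.2% of all genes. On WD the same 3 tools called 0 members as well, with 2.34% of all genes called, 1.88% higher and 0.46% lower. At an unadjusted p under 0.05 there were 3 members and 13.2% of all genes. On P21 4 members fell, with 8.52% of all genes called, 3.87% higher and 4.65% lower, and 0 members rose by the same 3 tools (0 unadjusted). DESeq2 called 6 members lower and limma-voom 3. At an unadjusted p under 0.05 there were 15 members, all lower in SG mice, and 24.7% of all genes in either direction. Wars1 averaged 16.9 ± 2.71 CPM (n = 6) in SG and 24.8 ± 3.26 CPM (n = 7) in sham mice, with no overlap (-0.48 ± 0.12, adjusted p = 0.00823). Vars1 averaged 17.9 ± 2.03 CPM in SG and 26.5 ± 5.22 CPM in sham mice (-0.50 ± 0.15, adjusted p = 0.032). Sars2 (mitochondrial serine) averaged 6.06 ± 1.36 CPM in SG and 9.50 ± 1.61 CPM in sham mice (-0.58 ± 0.16, adjusted p = 0.0189). Aars2 (mitochondrial alanine) averaged 10.8 ± 1.46 CPM in SG and 16.5 ± 1.35 CPM in sham mice, with no overlap (-0.54 ± 0.18, adjusted p = 0.0452).

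Of the 4 calls on P21, those of Sars2 and Wars1 held whichever single library was left out. Without sham P21 libraries 1 and 2 together Wars1 came to -0.38 (adjusted p = 0.0502) and Aars2 to -0.54 (adjusted p = 0.0813). Vars1 was lost without SG P21 library 1 or 7 (adjusted p 0.0548 to 0.0739), and Aars2 without sham P21 library 1 or 2 or SG P21 library 1, 2, 3, 4 or 7 (adjusted p 0.0529 to 0.0818). The authors' deposited table, whose fold changes ran with SG over sham across genes, listed 7 members under an adjusted p of 0.05 on P21 (Wars1, Sars2, Vars1, Kars1, Aars2, Lars1 and Vars2), all negative, and 0 on P36 and 0 on P7. The share of all genes of that table under this threshold is not given, so these counts have no background here.

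The difference between the surgeries in the effect of P7 was tested directly. For P7 against P36, 0 members were called by edgeR, DESeq2 or limma-voom (lowest adjusted p 0.244, 0.149% of all genes called, 0.0684% higher and 0.0808% lower). At an unadjusted p under 0.05 there were 1 member and 9.77% of all genes. For P7 against P21, 0 members were called as well (lowest adjusted p 0.0859 for Sars2, 1.3% of all genes called, 1.03% higher and 0.267% lower). At an unadjusted p under 0.05 there were 9 members and 16.8% of all genes. Without SG P7 library 7, 0 members were called in these tests or between SG and sham mice on P7. The response of the synthetases to P7 was therefore not shown to differ between SG and sham mice, which does not show that it was equal.

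Lars2 stood apart from its set by its scatter. Its group medians ran from 118 to 193 CPM of the library total, and 2 libraries lay far above, with 1850 CPM in SG WD library 4 and 1050 CPM in sham WD library 1. Beside it, the mitochondrial ribosomal RNAs mt-Rnr1 and mt-Rnr2 reached 980 and 892 CPM in SG WD library 4, both the highest of that group. In sham WD library 1 mt-Rnr1 stood at 491 CPM, in a group of 306 to 592 CPM. There mt-Rnr2 stood at 633 CPM, the highest of a group of 362 to 633 CPM. Skeletal muscle markers summed to 35.8 CPM in SG WD library 4 against 0.334 to 1.12 CPM in the other 7. Their part in the Lars2 values was not tested. With these libraries the SD exceeded the mean on WD (378 ± 742 TMM-scaled CPM in SG and 234 ± 305 in sham mice). By edgeR Lars2 was called in no comparison, with -1.29 (adjusted p = 0.0522) on P7 against WD in SG mice.

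**Figure D5:**
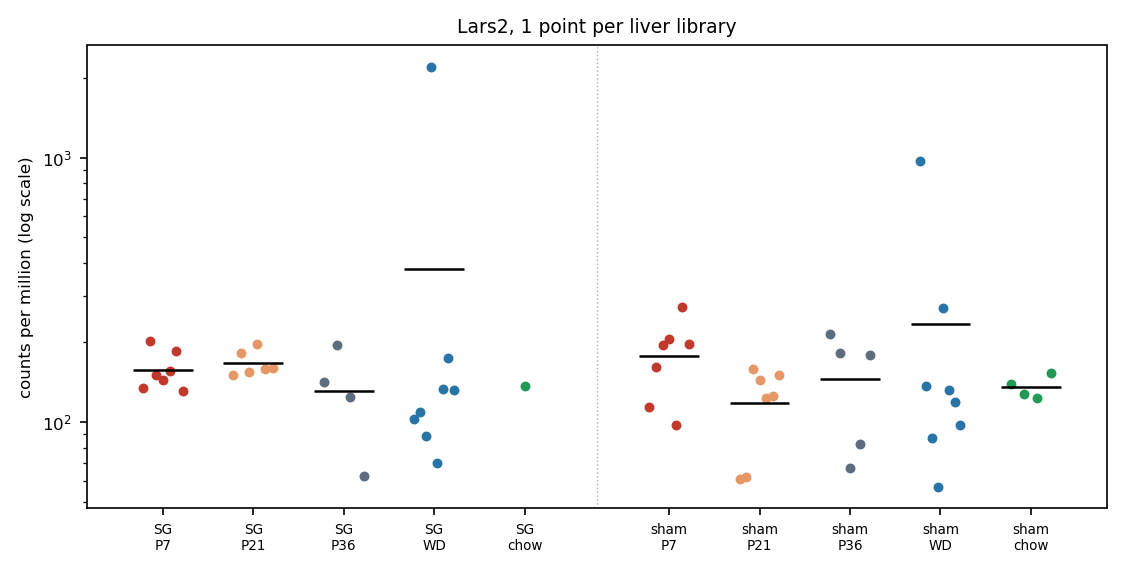
CPM of Lars2 (vertical axis, log scale, TMM-scaled) in each library, by group, with SG groups left of the dotted line and sham groups right of it; bars mark the mean. One SG WD point at 2210 CPM and one sham WD point at 973 CPM lie far above all others.

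Of the 35 members, Farsa was called by edgeR only on P7 against WD in SG mice (0.25 ± 0.08, adjusted p = 0.00971). With all libraries, edgeR called Rars1 (cytosolic arginine), Cars2 (mitochondrial cysteine), Lars2, Pars2 (proline), Vars2 (valine) and Wars2 (tryptophan) in none of the 18 comparisons. Members not named in a comparison did not pass its test there, which does not show that their groups were alike.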

How the data were processed

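Polyadenylated RNA of mouse liver was sequenced as stranded, paired 150 bp reads, per the labels' protocols. The authors deposited RSEM expected counts per gene; GRCm39, R 4.4.1, edgeR and limma are named in the submitters' processing notes, with no role for each. No aligner is given in those sources. The expected counts were rounded (3.34% of values were not whole). Symbols came from the authors' table (15523 genes) or a table of gene names (36760), and transcript lengths from the GENCODE transcript with the longest coding sequence. A second file deposited by the authors holds, per its headers, log2 fold changes, p-values and an F score per gene between sham and SG libraries. The headers do not state the sign, which was read from its correlation with SG minus sham fold changes here (r = 0.88 to 0.93 across genes).

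Counts of 57 of the 62 labelled libraries were used, with 6.99 to 34.01 M counts each. edgeR 4.0.16 in R 4.3.3 (filterByExpr, TMM factors 0.811 to 1.283, quasi-likelihood test) was fitted to 56 libraries in 9 groups with 47 residual degrees of freedom, and 18 contrasts were adjusted over all 16087 genes (Benjamini-Hochberg). The single SG chow library was left out of the fit. CPM are TMM-scaled unless stated. Means carry the SD between libraries and fold changes the SE of the fit, scaled from the test statistic. Alternatives were RLE scaling, no scaling, a minimum of 1 count in place of the filter, limma-voom (limma 3.58.1), DESeq2 1.42.0, the compared groups alone and each library left out. Leaving out SG WD libraries 5 and 7, or sham P21 libraries 1 and 2, was added after seeing the data. The fit was tested on simulated counts.

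The members, lists and tests were chosen with earlier results of these data known. Values are given for up to 8 cytosolic and 6 mitochondrial called members with the lowest adjusted p in each direction and for members apart from their set; further called members were named after their values were seen. Stretches of promoter were taken from RefSeq windows.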

Additional observations from a re-analysis of the deposited data

Results flagged for a closer look

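Dixon's criterion was applied 342 times, each time to 1 gene or set mean within 1 group of 4 or more libraries. In 19 of these tests 1 library lay far from the others, close to the 5% that chance gives. The tests reuse the same libraries and so are not independent. All values here are log2 CPM. SG P7 library 7, which also stood apart in its amino acid response genes, had the highest Vars2 of its group (4.67) and the highest mean over the mitochondrial synthetases (4.06). SG P36 library 1 had the lowest Iars1 (4.89), Kars1 (5.63) and Ears2 (2.9) of its 4 libraries. SG WD library 4 had the highest Lars2 (11.11), and SG WD library 5, which had a low sum over the fat-cell list, the lowest Nars2 (2.81). The SG P21 libraries held 3 low values, Tars1 in library 2 (5.84), Pars2 in library 4 (0.72) and Wars1 in library 7 (3.57).

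Among sham libraries, Fars2 was highest in P7 library 7 (4.51) and lowest in P36 library 2 (4.27), where Nars1 was highest (7.34). Nars2 was lowest in P21 library 1 (3.52). Wars1 was highest in WD library 3 (4.95) and Cars2 lowest in WD library 5 (3.21). On chow, Rars2 was highest in library 5 (4.21), and Farsb (5.05) and Hars1 (5.41) were lowest in library 6.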

How the results depend on the processing

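Of 113 calls of a member in a comparison, 113 were kept by DESeq2, 110 by RLE scaling, 106 by limma-voom, 90 without the count filter, 90 with the compared groups alone and 82 without scaling, and 1575 of 1814 when a library was left out; the cause of the losses was not tested, and no call reversed. Without the filter, 3 in place of 7 members were called on P7 against P21 in SG mice and 1 in place of 3 on P36 against P21 in SG mice. Without scaling, 9 in place of 15 were called on P21 against WD in sham mice, 1 in place of 0 for SG against sham on P36 and 7 in place of 4 for SG against sham on P21. The compared groups alone gave 7 for SG against sham on P21. Without sham P21 libraries 1 and 2 there were 7 for P21 against WD in sham mice and 2 for SG against sham on P21. Without SG WD libraries 5 and 7 there were 6 in place of 10 for P21 against WD in SG mice. With single libraries left out, the counts ran from 3 to 9 for P7 against P21 in SG mice, 0 to 3 for P36 against P21 in SG mice, 5 to 11 for P21 against WD in SG mice, 3 to 9 for WD against chow, 2 to 9 for SG against sham on P21 and 0 to 3 for the surgery difference of the P7 against P21 effect. For P7 against P36 they ran from 5 to 7 in SG and from 9 to 12 in sham mice. The shares of all genes called in these alternative fits are not given. Whether the changes in these counts are particular to the members therefore cannot be read from them. Without scaling the median of all genes moved from -0.01 to -0.11 for P7 against WD in sham mice, where the cytosolic median was 0.19 and the mitochondrial -0.11.

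No paired analysis was possible because the labels give the groups no shared replicate numbers. Mars2, Pars2 and Wars2 had the lowest levels per kilobase. The SG P36 group has 4 libraries and the sham P36 group 5, which limits what their comparisons can detect.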

Other observations

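The single SG chow library entered no comparison. It held 53.4 CPM of Gars1, 64.5 of Sars1, 27.0 of Cars1 and 33.2 of Yars1 among the cytosolic synthetases, and 14.3 of Nars2 and 22.8 of Hars2 among the mitochondrial ones. Its difference between the sets, 1.64 in mean log2 CPM, lay within the range of the 4 sham chow libraries, 1.56 to 1.77.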
